A study of Mus musculus with 8 samples.

Results

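The cytosolic ribosomal protein genes were examined in dermal fibroblasts of female mice that had eaten a normal diet (ND) or a high fat diet (HFD) for 6 months from an age of 2 months. Members were chosen by gene symbol alone. Every symbol of the form Rpl or Rps with a number, and the stalk genes Rplp0 to Rplp2, was taken from the array's probe annotation, which left out the S6 kinases. The rule matched 66 symbols, and 64 of them, 41 of the large and 23 of the small subunit, had at least 1 probe set that named no other gene. These 64 were analysed among 17097 genes in all. Rpl5 and Rps3 were not analysed as members, because every probe set for them also names another gene. Cells were released from dermis with collagenase and sorted for Pdgfra and CD34 and against CD45, CD117, CD24, CD31 and EpCam, with 10000 cells per sample, and their RNA was amplified over 20 cycles before hybridisation. ND and HFD had 4 arrays each, taken as 4 mice per diet. The labels mark ND 4 as excluded by quality control, so HFD 1 to 4 were compared with ND 1 to 3. The strain of the mice and the composition of the diets are not given in the sources used here. All values are log2 expression of a probe set, and each gene is represented by its brightest probe set.

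A cytosolic ribosome joins a small subunit, which reads the mRNA, to a large subunit, which forms the peptide bonds, and each subunit is built of ribosomal RNA and a fixed set of proteins. The proteins are needed in matched amounts, and their mRNAs are among the most abundant of most cells. These mRNAs begin with a tract of pyrimidines, the 5′ terminal oligopyrimidine tract, through which the kinase complex mTORC1 and the protein Larp1 set how actively they are translated. Arrays measure the mRNA and not its translation. Ribosomal protein genes also have many processed pseudogene copies in the mouse genome, so probes for them can match more than one locus.

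The annotated start regions below belong to the members with the largest diet differences in either direction, and are shown because genes of this family are known for a pyrimidine tract at the start of transcription. RefSeq windows on GRCm38.p6, from 250 bases before to 50 bases after the annotated start, were found for 50 of the 64 members. Each line gives 40 bases before and 20 bases from the start onwards, 5′ to 3′ on the gene's strand, with capitals for unbroken runs of 8 or more C or T bases. The first 6 genes had higher means in HFD and the other 5 had lower means.
Rps13, chr7:116334171-116334230, minus strand: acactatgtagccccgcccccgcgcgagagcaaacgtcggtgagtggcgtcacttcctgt
Rpl9, chr5:65391412-65391471, minus strand: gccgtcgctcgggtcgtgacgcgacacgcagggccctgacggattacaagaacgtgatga
Rpl23, chr11:97782420-97782479, minus strand: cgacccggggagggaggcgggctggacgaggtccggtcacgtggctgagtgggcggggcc
Rpl37a, chr1:72711220-72711279, plus strand: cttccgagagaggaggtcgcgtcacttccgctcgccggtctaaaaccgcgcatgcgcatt
Rps4x, chrX:102189372-102189431, minus strand: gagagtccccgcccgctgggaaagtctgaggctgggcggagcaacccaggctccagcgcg
Rps9, chr7:3704001-3704060, plus strand: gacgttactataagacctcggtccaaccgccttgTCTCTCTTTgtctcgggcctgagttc
Rps10, chr17:27635225-27635284, minus strand: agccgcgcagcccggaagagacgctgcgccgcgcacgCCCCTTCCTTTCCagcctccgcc
Rpl28, chr7:4792925-4792984, plus strand: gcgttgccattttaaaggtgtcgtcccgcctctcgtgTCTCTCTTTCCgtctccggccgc
Rps6, chr4:86857348-86857407, minus strand: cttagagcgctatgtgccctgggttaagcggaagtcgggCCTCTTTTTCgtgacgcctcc
Rps23, chr13:90923082-90923141, plus strand: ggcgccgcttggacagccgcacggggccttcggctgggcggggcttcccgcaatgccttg
Rps28, chr17:33824543-33824602, minus strand: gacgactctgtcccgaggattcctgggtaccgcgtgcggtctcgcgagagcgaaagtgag

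A pyrimidine run stood in 4 of the 11 printed stretches, in 1 of 6 with a higher and 3 of 5 with a lower mean in HFD. Among all member windows, 25 of 59 (42.4%) had such a run on the gene's strand within 10 bases of the annotated start, as did 13.7% of 32851 windows of the same length. The motif CCGGAAG, the core site of ETS factors such as GABP, was in 39.0% of the member windows and 8.86% of all windows, searched on both strands, and its reverse complement can overlap a pyrimidine run. The YY1 core AAGATGGCG was in 4 of 59 member windows (6.78%), which belong to only 2 genes, against 1.4%. The E-box CACGTG was in 13.6%, from 6 genes, against 7.15%, and TATAAA in 10.2% against 13.6%. Windows of the same gene were counted separately, and 7 members had more than 1. The member windows were also richer in G and C, at a median of 58.3% against 52.7%. The annotated starts may lie away from the start used in fibroblasts, so a stretch without capitals says only that no such run stands there.

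The members were among the brightest probe sets of the arrays. Their median level was 11.41, at the 98.2nd percentile of all genes, and 55 of 64 were in the top 5% of genes. The brightest were Rps2 at 12.90, which lines the channel where mRNA enters the small subunit, Rps6 at 12.69, the substrate of the S6 kinases, and Rpl4 at 12.47, which lines the tunnel for the growing peptide. The dimmest were Rpl14 at 5.98, Rps15a at 6.95 and Rps19 at 8.96, the last a gene often mutated in the inherited anaemia named after Diamond and Blackfan. Brightness depends on the probes as well as on the RNA. For Rpl14 the 4 probe sets that also name its pseudogene Rpl14-ps1 lay between 11.13 and 11.25, far above its own.

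Across the arrays the members moved together, and the largest movement was between mice of the normal diet. Each gene was set against its own mean over the 7 arrays compared. In ND 1 the median member lay 0.11 above its mean, in ND 2 it lay at −0.13 and in ND 3 at −0.13. In HFD 1, 2, 3 and 4 the medians were 0.03, 0.08, 0.02 and −0.02. The HFD arrays therefore sat between ND 1 and the pair of ND 2 and ND 3. Over all genes the same medians stayed between −0.03 and 0.02. ND 1 was above the gene's mean in 62 of 64 members, ND 2 in 5 and ND 3 in 16.

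**Figure D1:**
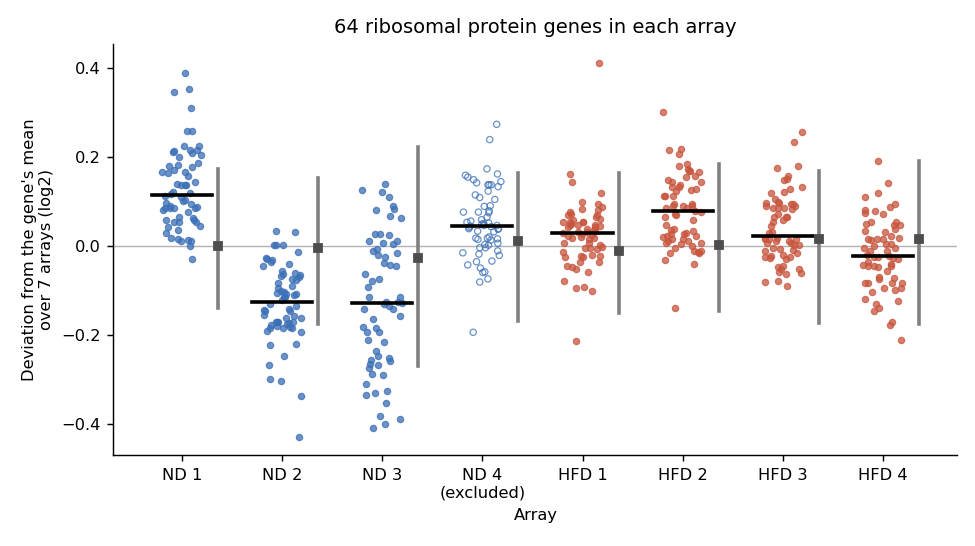
Each point is 1 of the 64 ribosomal protein genes in 1 array, as the log2 deviation from its own mean over ND 1 to 3 and HFD 1 to 4 (open points: the excluded ND 4). Black lines are the members' medians, and the grey square and bar beside each array are the median and the 10th to 90th percentile of all 17097 genes. The members' medians are 0.11 in ND 1 and −0.13 in ND 2 and ND 3, while those of all genes stay near 0.

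ND 1 exceeded both ND 2 and ND 3 in 60 of 64 members, where 35.8% of all genes did so. The 4 exceptions were Rpl15, Rpl27, Rps15a and Rps16. In HFD the order was as regular though smaller, with HFD 2 above HFD 4 in 62 of 64 members against 45.8% of all genes. The large and the small subunit did this alike, with medians in ND 1 of 0.12 and 0.11 and in ND 2 of −0.12 and −0.14. ND 2 and ND 3 differed from each other gene by gene, and ND 3 was below ND 2 in 33 of 64 members, near the 54.5% of all genes. The 9 members whose probe set is designed to match a single transcript gave medians of 0.18, −0.13 and −0.14 in ND 1, 2 and 3.

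As a result the members spread more widely within ND than within HFD. The SD was larger in ND in 58 of 64 members, against 50.1% of all genes. The median SD of the members was 0.17 in ND (n = 3) and 0.06 in HFD (n = 4), where that of all genes was 0.10 in both. Rps18 had the largest SD within ND. It measured 9.94, 9.29 and 9.48 in ND 1, 2 and 3, and 9.57, 9.73, 9.68 and 9.47 in HFD 1 to 4. The ND values of Rps18 thus enclosed all HFD values. The 3 steadiest members over the 7 arrays were Rps16 (SD 0.03), Rpl27 (SD 0.04) and Rps29 (SD 0.04). Without ND 1 the count fell to 38 of 64, with 42.7% of all genes, so it rests largely on that array. With ND 4 included it was again 58 of 64, with 57.4% of all genes.

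**Figure D2:**
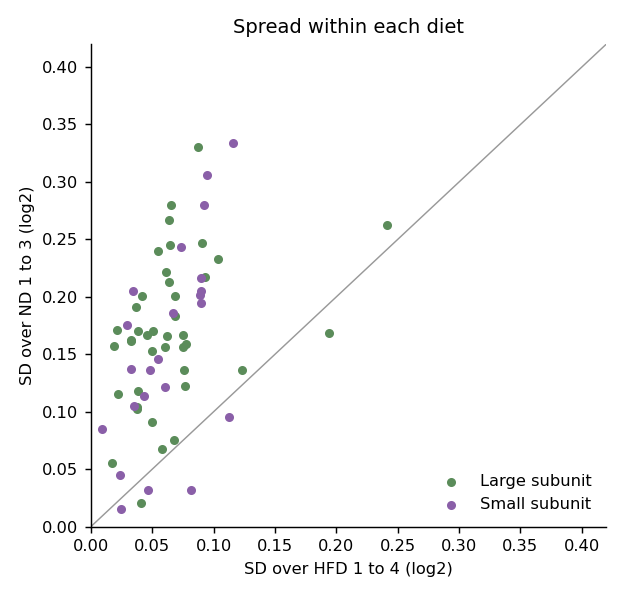
The SD of each ribosomal protein gene over ND 1 to 3 (vertical, log2) is plotted against its SD over HFD 1 to 4 (horizontal, log2), by subunit, with the line of equal SD. In 58 of 64 genes the point lies above the line.

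Between the diets no ribosomal protein gene passed the threshold (0 of 64 at an adjusted p under 0.05, limma), where 5.35% of all genes did, 2.62% higher and 2.73% lower in HFD. At an unadjusted p under 0.05 there were 13 members higher in HFD (20.3%) and 0 lower, against 12.3% and 9.83% of all genes. The members' median difference, HFD minus ND, was 0.06 with a range of −0.19 to 0.42, and that of all genes was 0.02. A positive difference was found in 44 of 64 members and in 56.2% of all genes. The median standard error of the members was 0.08, so a shared change of the size of their median could not be told from 0 gene by gene. The large subunit had a median of 0.07, with 30 of 41 positive, and the small subunit of 0.04, with 14 of 23 positive.

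**Figure D3:**
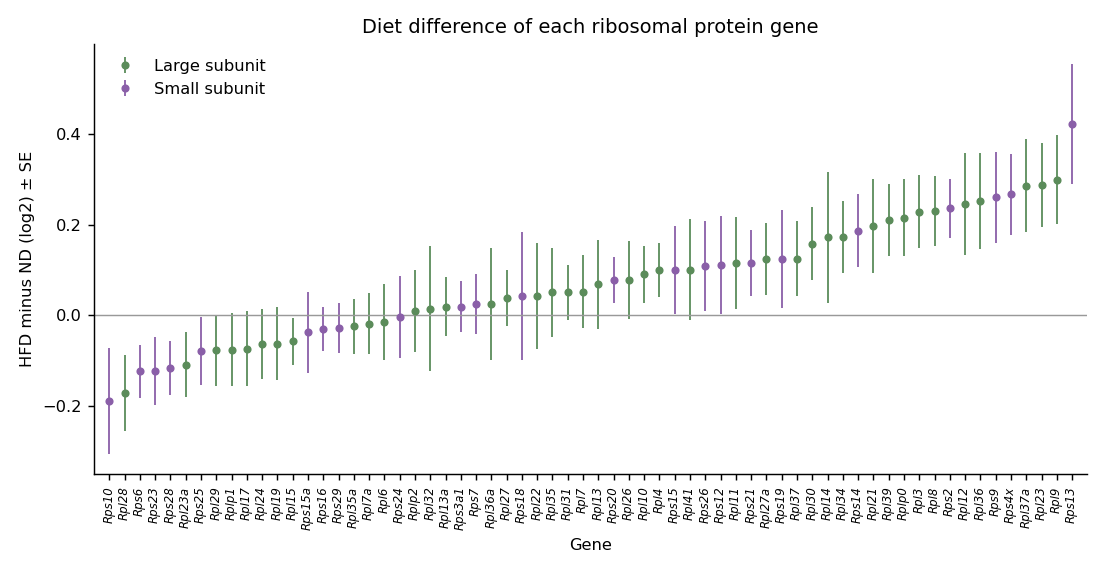
The difference HFD minus ND on the log2 scale is shown for each of the 64 genes in order of size, with bars of 1 standard error from limma. It runs from −0.19 for Rps10 to 0.42 for Rps13, and no gene passed the threshold.

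Rps13, a core protein of the small subunit, had the largest positive difference. It measured 9.26, 8.72 and 8.74 in ND 1, 2 and 3 and 9.31, 9.45, 9.22 and 9.34 in HFD 1 to 4, a mean of 8.91 ± 0.31 (SD, n = 3) against 9.33 ± 0.09 (SD, n = 4) and a difference of 0.42 (SE 0.13, limma adjusted p = 0.0913). ND 2 and ND 3 were low, while ND 1 lay inside the HFD range. Rpl23, which lies at the face where the subunits meet, had the same shape, with 11.53, 11.25 and 11.14 in ND and 11.50, 11.64, 11.65 and 11.59 in HFD (difference 0.29, SE 0.09, limma adjusted p = 0.0956). So did Rpl37a, a zinc-binding protein of the large subunit, with 12.07, 11.70 and 11.64 in ND and 11.96, 12.14, 12.20 and 12.06 in HFD (difference 0.29, SE 0.10). In the brightest probe set of each of these genes the diets overlapped through ND 1 alone. For Rpl37a this rests on that probe set. A second one, nearly as bright at 11.92, differed by 0.02, and its ND 3 value of 11.88 lay inside its HFD range.

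The diets did not overlap in 7 members, each higher in HFD, and in 0 lower, against 9.95% and 7.99% of all genes. These were Rpl9, Rps4x, Rps2, Rpl8, Rpl3, Rpl30 and Rps20. Rpl9 measured 10.94, 10.79 and 10.52 in ND and 10.99, 11.14, 11.04 and 11.03 in HFD (difference 0.30, SE 0.10, limma adjusted p = 0.102). Rps4x, encoded on the X chromosome, measured 11.64, 11.42 and 11.23 in ND and 11.67, 11.74, 11.71 and 11.67 in HFD (difference 0.27, SE 0.09). Rps2 had the smallest adjusted p of any member, with 12.91, 12.74 and 12.64 in ND and 12.93, 13.01, 13.02 and 13.04 in HFD (difference 0.24, SE 0.07, limma adjusted p = 0.0646). In all 3 of these genes ND 1 came within 0.05 of the lowest HFD array. The 7 are 10.9% of the members, near the share of all genes. Rps9, near the mRNA entry channel, measured 10.64, 10.40 and 10.24 in ND and 10.72, 10.79, 10.66 and 10.58 in HFD, so that ND 1 was above HFD 4 (difference 0.26, SE 0.10).

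Of the negative differences, that of Rps10, a protein ubiquitinated when ribosomes collide, was the largest. It measured 11.61, 11.05 and 11.33 in ND and 11.20, 11.21, 11.14 and 11.01 in HFD (difference −0.19, SE 0.12, limma adjusted p = 0.389). Its other probe sets did not share this. One at 10.53 differed by −0.0008, with ND 3 below every HFD array, and a dim one at 6.20 by 0.07. Rpl28 of the large subunit measured 12.33, 11.97 and 12.21 in ND and 12.02, 12.06, 12.01 and 11.90 in HFD (difference −0.17, SE 0.08). In the brightest probe set of both genes ND 1 and ND 3 were high and ND 2 lay among the HFD arrays. There ND 3 stood on the other side than in Rps13 or Rpl23. Rps23, at the decoding centre, measured 11.42, 11.18 and 11.33 in ND and 11.12 to 11.26 in HFD (difference −0.12, SE 0.08). Rpl23a, beside the tunnel exit, measured 11.51, 11.30 and 11.50 in ND and 11.29 to 11.38 in HFD (difference −0.11, SE 0.07). Rps28, near the mRNA exit, was steady in ND at 12.37, 12.31 and 12.36 and ran from 12.15 to 12.34 in HFD (difference −0.12, SE 0.06). Only HFD 1 of Rps28 reached the ND range.

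**Figure D4:**
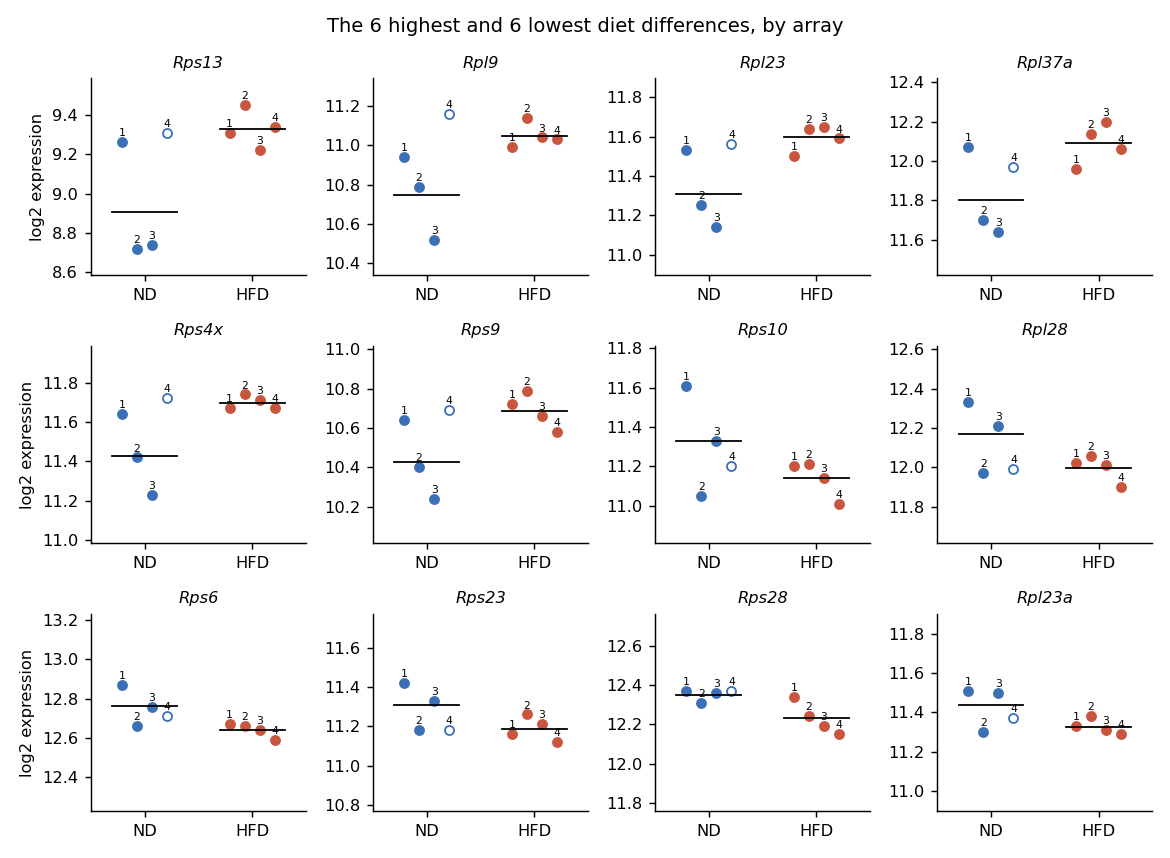
The log2 expression of the 6 genes with the highest and the 6 with the lowest diet difference is shown by array, each panel spanning 1 log2 unit, with black lines for the means of ND 1 to 3 and HFD 1 to 4 and an open point for the excluded ND 4. In Rps13, Rpl23 and Rpl37a only ND 2 and ND 3 lie below the HFD arrays, and in Rps10 and Rpl28 ND 1 and ND 3 lie above them.

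ND 2 and ND 3 both lay below every HFD array in 37 of 64 members (17.4% of all genes), and ND 1 lay above every HFD array in 33 of 64 (21.7% of all genes). Whether members were called therefore turned on ND 1. Without it, with ND 2 and ND 3 left in that group, 13 of 64 members were called higher and 0 lower (limma), against 2.61% and 2.15% of all genes, and the median difference was 0.17. The 13 were Rps13, Rps2, Rpl23, Rpl37a, Rplp0, Rps4x, Rpl12, Rps14, Rpl8, Rpl36, Rpl39, Rpl3 and Rpl9, with differences from 0.29 for Rps14 to 0.60 for Rps13 (SE 0.10, limma adjusted p = 0.0259). Leaving out any other array gave 0 members past the threshold, and so did the inclusion of ND 4. The members' median difference was 0.025 without ND 2 and 0.026 without ND 3. ND 3 was the lowest array in 30 of 64 members (27.0% of all genes), and without it only 11 of all genes passed. The labels mark ND 1 as included. When only the 8554 genes at or above the median level were tested, Rps2 rose (adjusted p = 0.0353, limma), 1 of 63 members. Of those genes 8.17% passed as higher in HFD.

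By role, 0 of the 3 stalk proteins, which recruit the elongation factors, passed the threshold. Rplp0, the base of the stalk, measured 12.31, 12.03 and 11.92 in ND and 12.26, 12.30, 12.36 and 12.29 in HFD (difference 0.22, SE 0.09, limma adjusted p = 0.169), with ND 1 again inside the HFD range. Rplp1 and Rplp2, which bind to it, differed by −0.08 (SE 0.08) and 0.01 (SE 0.09). Rpl11, which with Rpl5 carries the smallest ribosomal RNA of the large subunit and can inhibit Mdm2, measured 11.48, 11.13 and 11.02 in ND and 11.33, 11.40, 11.29 and 11.28 in HFD (difference 0.12, SE 0.10). Rps6 measured 12.87, 12.66 and 12.76 in ND and 12.67, 12.66, 12.64 and 12.59 in HFD (difference −0.12, SE 0.06, limma adjusted p = 0.25), and its diets overlapped only through ND 2. The 8 proteins around the exit tunnel had a median difference of 0.05, with 5 positive, and the 13 measured of 17 listed genes of Diamond-Blackfan anaemia one of 0.03, with 7 positive.

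The 64 members had 122 probe sets in all, and 31 members had more than 1. In 19 of the 31 all probe sets gave the same sign, and in 12 the signs differed. The widest range was that of Rpl31, a protein at the tunnel exit. Its 2 bright probe sets, at 12.34 and 12.23, differed by 0.05 and 0.04, one at 8.71 by 0.47, and the dimmest by −0.07. In Rps20, 2 bright probe sets near 12.27 differed by 0.08 and 0.10 and 2 dimmer ones, at 7.49 and 6.53, by −0.37 and −0.38. In Rpl15 the bright probe set differed by −0.06 and the dimmer one, at 8.90, by 0.39. The probe sets of Rpl41, which encodes the smallest ribosomal protein, ran from −0.31 to 0.10. In Rpl31, Rps20 and Rpl15 a dimmer probe set thus moved more than the brightest one.

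**Figure D5:**
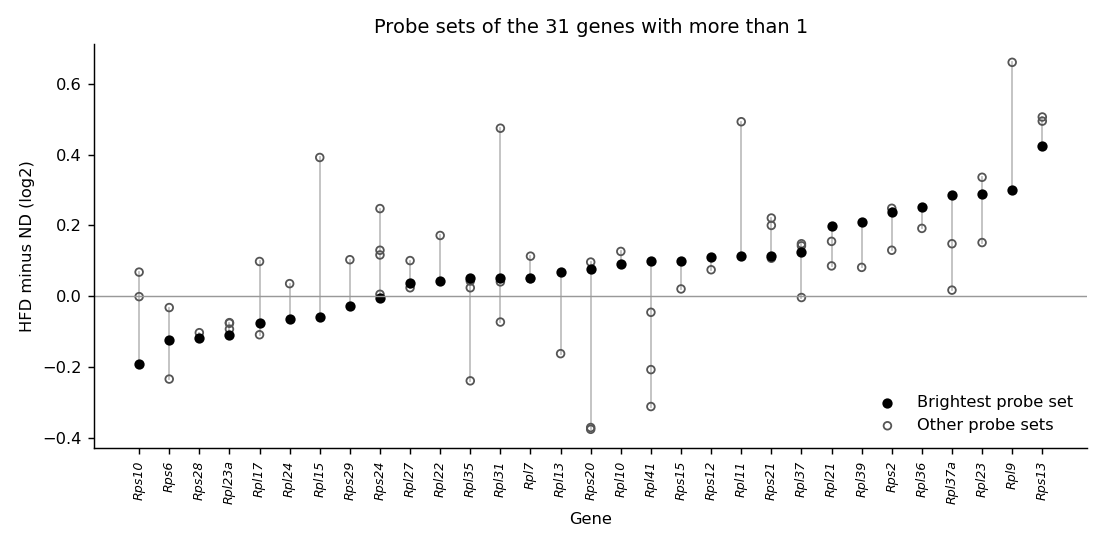
For each of the 31 genes with more than 1 probe set, the difference HFD minus ND (log2) of the brightest probe set is a filled point and that of the others an open point. All probe sets lie on 1 side of 0 in 19 genes, and the widest ranges are those of Rpl31, Rps20, Rpl15 and Rpl41.

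Tested alone over 28898 probe sets, 3 of the 122 (2.46%) passed the threshold as higher in HFD and 0 as lower. Of all probe sets 2.21% passed as higher, a share that leaves out those lower in HFD. The 3 were dimmer probe sets of Rpl9 (6.09, difference 0.66, limma adjusted p = 0.0273), Rps13 (6.90, difference 0.49, limma adjusted p = 0.0395) and Rpl31 (8.71, difference 0.47, limma adjusted p = 0.0445). That of Rps13 measured 6.57, 6.65 and 6.62 in ND and 7.19, 6.94, 6.94 and 7.36 in HFD, so here ND 1 stood with ND 2 and ND 3. That of Rpl9 measured 5.80, 5.83 and 5.50 in ND and 6.10, 6.51, 6.57 and 6.30 in HFD. Both are below or near the median gene of 6.77. Of the 64 main probe sets, 55 carry a suffix by which the manufacturer marks probes shared between transcripts, 31 of them within 1 gene (suffix a) and 24 across genes (suffixes s and x), a share of 85.9% against 20.2% of all genes. Copies of these genes could thus add to many of the values.

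Of 8 measured ribosomal proteins that the symbol rule does not cover, 0 passed the threshold, and the median difference was 0.03. Rpsa, a small subunit protein also known as a laminin receptor, measured 11.67, 11.52 and 11.31 in ND and 11.72, 11.85, 11.81 and 11.74 in HFD (difference 0.28, SE 0.09, limma adjusted p = 0.0821), and Rpl22l1, the paralogue of Rpl22, differed by 0.28 (SE 0.10). The ubiquitin-like fusion gene Fau differed by −0.12.

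The lists of related genes that follow hold calls that rest on the choice of arrays. In each of the 4 lists with calls, 0 genes passed with ND 4 included, and 0 passed without ND 3, without HFD 3 or without HFD 4. Among 36 measured factors of ribosome assembly, 4 rose in HFD and none fell (limma), and the median difference was 0.15. Mrto4, which prepares the site of the stalk, averaged 9.03 ± 0.12 in the 4 HFD arrays against 8.42 ± 0.21 (SD) in the 3 ND arrays (difference 0.60, SE 0.12, limma adjusted p = 0.0267). Nip7 rose by 0.49 (SE 0.09), Eif6, which holds the large subunit apart from the small until it is mature, by 0.45 (SE 0.10) and Rrp1 by 0.43 (SE 0.09). In none of these 4 did the diets overlap, but they were picked by the same values, so this adds no support. Of all genes 9.95% were higher in HFD without overlap. Of 17 genes of RNA polymerase I, which transcribes ribosomal RNA, the shared subunit Polr1c rose by 0.58 (SE 0.10, limma adjusted p = 0.0224), the initiation factor Rrn3 fell by 0.64 on the log2 scale (SE 0.16, limma adjusted p = 0.0452), and 15 did not pass. The median difference of these 17 was 0.03.

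Of 15 other genes whose mRNAs carry a pyrimidine tract, 3 rose and none fell. These were Hnrnpa1 (0.58, SE 0.12, limma adjusted p = 0.0315) and the elongation factor subunits Eef1d (0.39, SE 0.09) and Eef1g (0.33, SE 0.08). The median difference of the 15 was 0.02, like that of all genes. Eef1d measured 11.63, 11.46 and 11.28 in ND and 11.67, 11.88, 11.91 and 11.91 in HFD. As in most ribosomal protein genes, ND 1 was the highest of ND 1 to 3 in Eef1d. None of ND 1 to 3 reached HFD, as in the 7 members without overlap. The excluded ND 4 was at 11.75, above HFD 1. The mean level of these 15 genes was 11.06, 10.88 and 10.88 in ND 1, 2 and 3 and 11.02 to 11.10 in HFD, so ND 1 again stood with HFD.

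Of 19 measured genes of mTORC1 and of translational control, 1 rose and 3 fell, with a median difference of −0.07. Maf1, a repressor of RNA polymerase III that mTORC1 inactivates, measured 7.82, 7.81 and 7.80 in ND and 8.27, 8.60, 8.60 and 8.49 in HFD (difference 0.68, SE 0.10, limma adjusted p = 0.0224). Larp4, which protects poly(A) tails, fell by 0.72 on the log2 scale (SE 0.16), Eif4ebp2, an inhibitor of cap-dependent initiation, by 0.50 (SE 0.11) and the kinase Rps6ka3 by 0.45 (SE 0.09). Of 10 measured genes of the response to ribosomal stress, 0 passed, and the median difference was 0.12. Cdkn1a had the smallest adjusted p of these, at 0.167 (difference 0.20, SE 0.08, limma).

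The sorted cells carried fibroblast transcripts. The collagen Col1a1 was at 13.20 in ND and 13.23 in HFD, decorin (Dcn) at 13.47 and 13.41, and Cd34 at 12.08 and 12.10, while Pdgfra, the other marker of the sort, was dim at 5.92 and 6.27. Of 10 fibroblast genes Fbln1 and Lum fell and 8 did not pass. The mean of 18 keratinocyte genes was 6.72, 6.35 and 6.51 in ND 1, 2 and 3 and 6.40, 7.61, 7.01 and 6.97 in HFD 1 to 4, and 9 of the 18 were below the median gene. Of ND 1 to 3, ND 1 had the highest ribosomal protein median and the highest keratinocyte mean. In HFD, HFD 2 had both. The endothelial mean was highest in the same arrays, but that order rested largely on 1 gene, Tek. Tek measured 7.60, 6.33 and 7.10 in ND 1, 2 and 3 and 6.80, 8.77, 7.27 and 6.96 in HFD 1 to 4. The shared order of ribosomal protein and keratinocyte genes did not hold throughout. HFD 1 had the lowest keratinocyte mean in HFD, at 6.40. Its ribosomal protein median of 0.03 was nevertheless above the −0.02 of HFD 4. The excluded ND 4 had a higher keratinocyte mean than ND 1 but a lower ribosomal protein median. None of the 18 keratinocyte genes rose, Jup fell, and the other 17 had a positive sign, with a median over the list of 0.35. Of 15 blood cell genes Tyrobp rose, and none of the 10 endothelial or 9 muscle and pericyte genes passed. These 4 marker genes were likewise lost with ND 4 included and without ND 2, ND 3, HFD 3 or HFD 4. Fbln1, Lum and Tyrobp were also lost without ND 1. Blood cell genes ranged in mean from 5.97 to 6.06 over the 7 arrays, endothelial genes from 6.41 to 6.62 and muscle and pericyte genes from 5.90 to 6.06. RNA quality was followed by control probe sets for the 3′ and the 5′ end of Gapdh and Actb. The level at the 3′ end less that at the 5′ end averaged −0.29, −0.34 and −0.18 in ND 1, 2 and 3 and −0.44 to −0.38 in HFD. With it as a covariate 0 members and 0 of all genes passed the threshold (limma), and 0 members had an unadjusted p under 0.05. In this measure every HFD array lay below ND 1, 2 and 3. The covariate and the diet therefore cannot be told apart in that fit, and its loss of calls decides nothing about RNA quality. The part of these measures in the ribosomal protein pattern was not tested. In such arrays a change in the RNA of each cell and a change in the kinds of cells cannot be told apart.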

How the data were processed

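The deposited table holds log2 expression of 45141 probe sets in 8 arrays, which the authors made with RMA and affy per the submitters' processing notes (their versions are not given in the sources used here). RMA places the arrays on a common scale, so a change in total RNA would not be seen. The number of arrays limits the precision, and no pair of arrays was a duplicate. The design text gives 4 mice per diet and the labels number the specimens, so an array was counted as 1 mouse. Where specimens share a source, p-values measure only the spread between these arrays.

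GEO's platform annotation gave the gene names, 28898 with 1 gene and 551 with several, and symbols of 28689 were updated by Entrez identifier through a table of GRCm38.p6. Each gene was represented by its brightest single-gene probe set over the 7 arrays. HFD 1 to 4 were compared with ND 1 to 3 in limma 3.58.1 (R 4.3.3; lmFit, eBayes with trend), with Benjamini-Hochberg adjustment over 17097 genes at 0.05. All p-values in the text come from limma. The fit was tested on simulated data.

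The members and lists were chosen with earlier results of these data known. Named members were those past the threshold, the 6 largest differences each way, the 3 brightest and 3 dimmest, the 4 widest probe set ranges, the 4 largest and 3 smallest SDs, and the stalk genes, Rpl11 and Rps6. Of other lists, up to 3 genes past the threshold were named, or else the smallest p. Rpl8, Rpl3, Rpl30, Rps14, Rpl12, Rpl36, Rpl39, Rpl22l1, Fau, Eif6, Eif4ebp2 and the fibroblast genes that did not pass were named after their values were seen. Alternatives were all 8 arrays, each array left out, the specimen number as a block, quantile normalization, median centring, no dim genes, averaged probe sets, each probe set by itself, eBayes without trend and the 3′ minus 5′ covariate.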

Additional observations from a re-analysis of the deposited data

Results flagged for a closer look

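The 4 HFD arrays were compared in the 64 members and in 17 list genes past the threshold. No HFD array stood apart from the other 3 in any of the 64 members, and 1 did in each of 2 list genes. Eef1d was at 11.67 in HFD 1, below 11.88 to 11.91 in HFD 2 to 4. Rrp1 was at 9.05 in HFD 2, above 8.87 to 8.88 in the others. Chance flags about 1 in 20 such groups.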

How the results depend on the processing

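Leaving out each array in turn gave 6 to 1072 genes past the threshold (914 with all 7), 0 to 13 ribosomal protein genes, a member median of 0.025 to 0.17, and 38 to 58 members with the larger SD in ND. Both the 13 genes and the median of 0.17 came without ND 1, as did the 38. The count over all genes was 6 with all 8 arrays, 1387 without the dimmer genes, 400 with averaged probe sets, 0 with the 3′ minus 5′ covariate (limma) and 1374 with every probe set by itself. The members past the threshold were 1 without the dimmer genes and 3 of 122 with every probe set by itself, where 99 of 122 had the larger SD in ND. The causes were not tested. Under the other settings 0 members passed, and the median ran from 0.03 to 0.09. Of 29 named members, 16 kept the sign of their difference in all 16 settings.

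The specimen numbers were not used to pair the arrays in the main fit. Over all genes, arrays of the same number deviated from their diet's mean with correlations of −0.18, −0.29 and −0.05. Arrays of different numbers were not set beside these, so a source shared by number is not excluded. With the number as a replicate block 1 gene and 0 members passed, and the member median was 0.09.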

Other observations

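The excluded ND 4 is in no comparison except where it is said to be included. Its median member lay 0.05 above the mean of the 7 arrays, and 49 of 64 members were above their mean there. The brightest probe set of Rps13 was at 9.31 in ND 4, inside its HFD range, and Maf1 was at 8.53, inside its own. In the dimmer probe sets of Rps13, however, ND 4 lay below every HFD array. It was at 8.69 against 8.70 to 8.97, and at 6.84 against 6.94 to 7.36.

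Probe sets that name Rpl5 together with Dipk1a included a bright one, which measured 12.20, 11.85 and 11.83 in ND 1, 2 and 3 and 12.12 to 12.19 in HFD. The brightest probe set that names Rps3 together with Snord15b measured 9.70, 9.84 and 9.85 in ND and 9.41 to 9.60 in HFD, without overlap. Its ND arrays were in another order than those of most members.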
